A study of Mus musculus with 4 samples.

Results

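TRIM proteins are a family of ubiquitin ligases and related factors, and 41 family members were measured here. The series describes the cells as activated mouse CD8+ T cells, the cytotoxic branch of T lymphocytes. Whether all libraries hold that population was not tested, and markers of several cell types are given below. Members were the gene symbols made of Trim, a number and at most 1 further letter whose mean normalized count over the 4 libraries was at least 20. The deposited table lists 49490 genes, of which 68 symbols have that form, and 27 of the 68 lay below the mean. Members were thus chosen by their mean level over all 4 libraries. For 2 of them, Trim6 and Trim30b, the mean of the libraries labelled WT alone lies below 20, so their membership rests on the group in which they were high, and their differences are given as a description.

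The study compared 2 libraries labelled Irf8-/- with 2 labelled WT, whose genotype the series' design gives as Irf8fl/fl, an Irf8 allele flanked by recombination sites. By the series' description, all cells came from spleens and lymph nodes and were activated in culture, and polyadenylated RNA was sequenced. The stimulus, its duration, the age of the mice and the Cre driver are not stated in the labels. Nor do they state whether replicate libraries stem from different animals or cultures, so the p-values reflect only how far these libraries vary, possibly for technical reasons alone. IRF8 is a transcription factor of the interferon regulatory factor family, and the comparison asks which transcripts differ in activated CD8+ T cells without it.

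A TRIM protein is built from a RING domain that recruits a ubiquitin-conjugating E2 enzyme, 1 or more B-boxes and a coiled coil, followed by a C-terminal module that binds the substrate. A SPRY module is the most common, and the NHL repeats, the COS box and the PHD finger with bromodomain mark smaller classes. Many SPRY members restrict viruses or tune signalling from RNA and DNA sensors, and several are themselves induced by interferon. In immune cells the family is best known for antiviral defence and for TRIM28, which silences endogenous retroviruses.

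The whole-number reads recovered from the deposited values summed to 58899365 to 59724952 per library. Irf8 itself had 89508 and 90222 normalized counts in the libraries labelled knockout, against 6364 and 6081 in the libraries labelled WT, 14.4-fold higher where the label would have it lower or absent (log2 fold change 3.85, SE 0.04, limma adjusted p = 4.32e-08). Groups are for this reason named by their labels alone, and a gene called higher was higher in the libraries labelled knockout. Whether the labels were exchanged, or those libraries hold RNA of another cell population, was not tested, so no direction below is that of a loss of Irf8. All 8 CD8 T cell markers were present and lower, with a summed level of 298436 to 303345 in the libraries labelled knockout and 475357 to 477358 in those labelled WT. All 12 plasmacytoid dendritic cell markers were higher, with sums of 272913 to 273461 in the libraries labelled knockout and 9713 to 9895 in those labelled WT. Of the conventional dendritic cell markers 7 of 8 were higher, with sums of 364502 to 364913 in the libraries labelled knockout and 34072 to 34856 in those labelled WT. Of the neutrophil markers 8 of 8 were higher (sums of 2562 to 2735 in the libraries labelled knockout and 131 to 164 in those labelled WT), and Camp, Elane and Mpo had 0 reads in both libraries labelled WT. Of the B cell markers 3 of 7 tested were higher (sums of 38312 to 38450 in the libraries labelled knockout and 7516 to 7913 in those labelled WT), with Ebf1 at 0 in both libraries labelled WT. Of the macrophage markers 1 of 8, Cd68, was higher and 6 were lower, with sums of 12312 to 12584 in the libraries labelled knockout and 5116 to 5177 in those labelled WT. Without Cd68, the other 7 summed to 1193 to 1394 in the libraries labelled knockout and 3229.9 to 3429 in those labelled WT. The part of these markers in the differences below was not tested, and in bulk RNA fewer cells of a type and less RNA per cell cannot be told apart.

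More TRIM members were higher than lower in the libraries labelled knockout, and most of the differences were small. Of the 41 members, 14 were higher, 4 were lower and 23 did not pass an adjusted p of 0.05 by limma on log2(normalized count + 1). The 18 that passed are 43.9% of the members, beside 33.4% of all 18378 genes tested. The higher members are 34.1%, beside 19.9% of all genes, and the lower members 9.76%, beside 13.4%. Members had a median log2 fold change of 0.12, with quartiles of -0.18 and 0.39, and all genes tested had a median of 0.02, with quartiles of -0.25 and 0.42. Only 4 members, Trim6, Trim30b, Trim7 and Trim3, were higher by more than 2-fold, which is 9.76% of members beside 10.5% of all genes, and none was lower by that much. Without Trim6 and Trim30b, 12 of 39 members were higher (30.8%), 4 lower and 23 not past the test, 2 were higher by more than 2-fold (5.13%), and the median was 0.11. The groups' values stood apart without overlap in 35 of the 41 members, or 85.4%, beside 68.8% of all genes tested. The counts by class and by partner list below stand beside the same shares of all genes, 19.9% higher and 13.4% lower.

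Scaling changed this balance. When each library was centred on its own median, the median of all genes moved to -0.28, and 8 members were higher and 18 lower, against 13.0% and 39.2% of all genes (52.2% in either direction). The 8 were Trim3, Trim6, Trim7, Trim16, Trim25, Trim30b, Trim41 and Trim44, all of them higher in the main fit too. Trim6 and Trim30b are members only through the libraries labelled knockout, so their calls here and in the next list are descriptive. The 4 members lower in the main fit stayed lower. The centred log2 fold changes were 0.55 for Trim16, 0.42 for Trim44, 0.41 for Trim25 and 0.20 for Trim41, and -0.70 for Trim56, -0.66 for Trim5, -0.61 for Trim14 and -0.58 for Trim34a. Of the other higher members, 6 no longer passed, and 14 members that had not passed became lower. The sign turned in 12 members, and the value with median centring is given beside each member whose call or sign it changed. When either library labelled knockout was left out, 6 members were higher and 0 lower by limma, the lone library being assumed to vary like the others. Those 6 were Trim3, Trim7, Trim25, Trim30b, Trim41 and Trim44. Of all genes, 7.39% were then higher and 3.78% lower without replicate 1, and 7.12% and 3.43% without replicate 2. At an unadjusted p under 0.05 there were 11 higher and 6 lower members without replicate 1, beside 17.4% and 13.2% of all genes. Without replicate 2 there were 14 higher and 4 lower, beside 17.0% and 13.1%. On the recovered reads, edgeR and DESeq2 called the same 14 higher and 4 lower members. Of all genes, edgeR called 34.5% (20.1% higher and 14.4% lower) and DESeq2 32.9% (19.0% higher and 13.9% lower). The authors' deposited table calls 12 members higher and 4 lower once its sign, WT over knockout, is turned, beside 25.6% of all genes with an adjusted p, and all 16 have the direction found here. Trim30d and Trim16 passed here and had adjusted p-values of 0.066 and 0.0567 in the authors' deposited table.

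**Figure D1:**
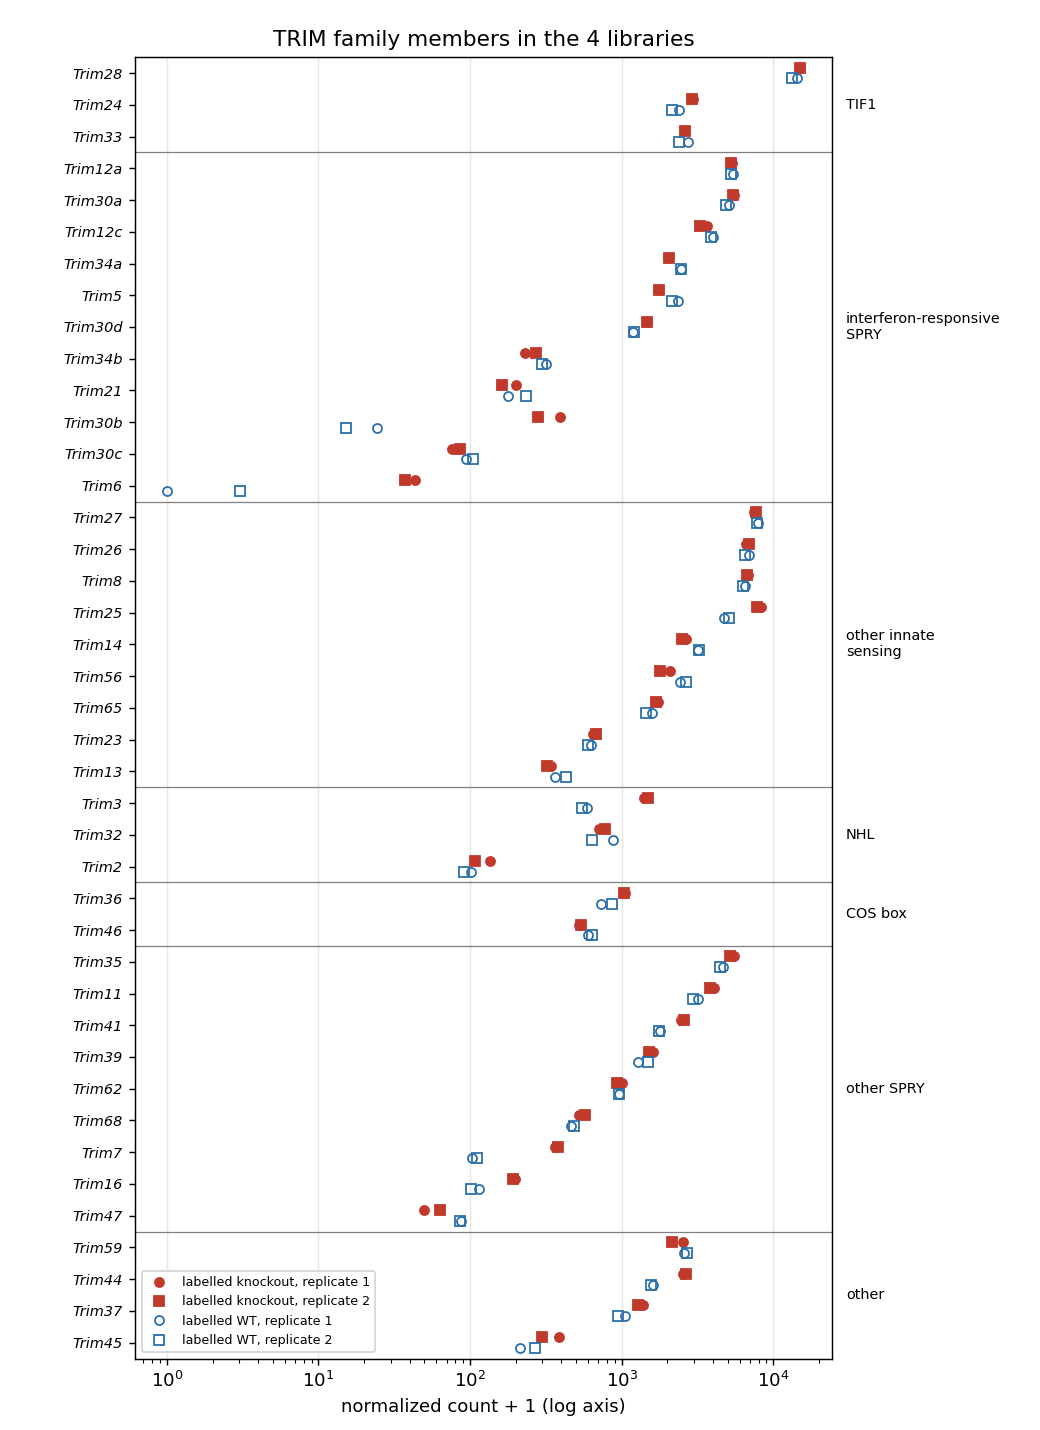
Normalized count + 1 (log axis) of each of the 41 TRIM members in each of the 4 libraries, grouped by the classes used below, which follow C-terminal module or function. Filled red symbols are the 2 libraries labelled knockout and open blue symbols the 2 labelled WT. Trim6 and Trim30b show the widest gap between the groups, and most other members lie close together.

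**Figure D2:**
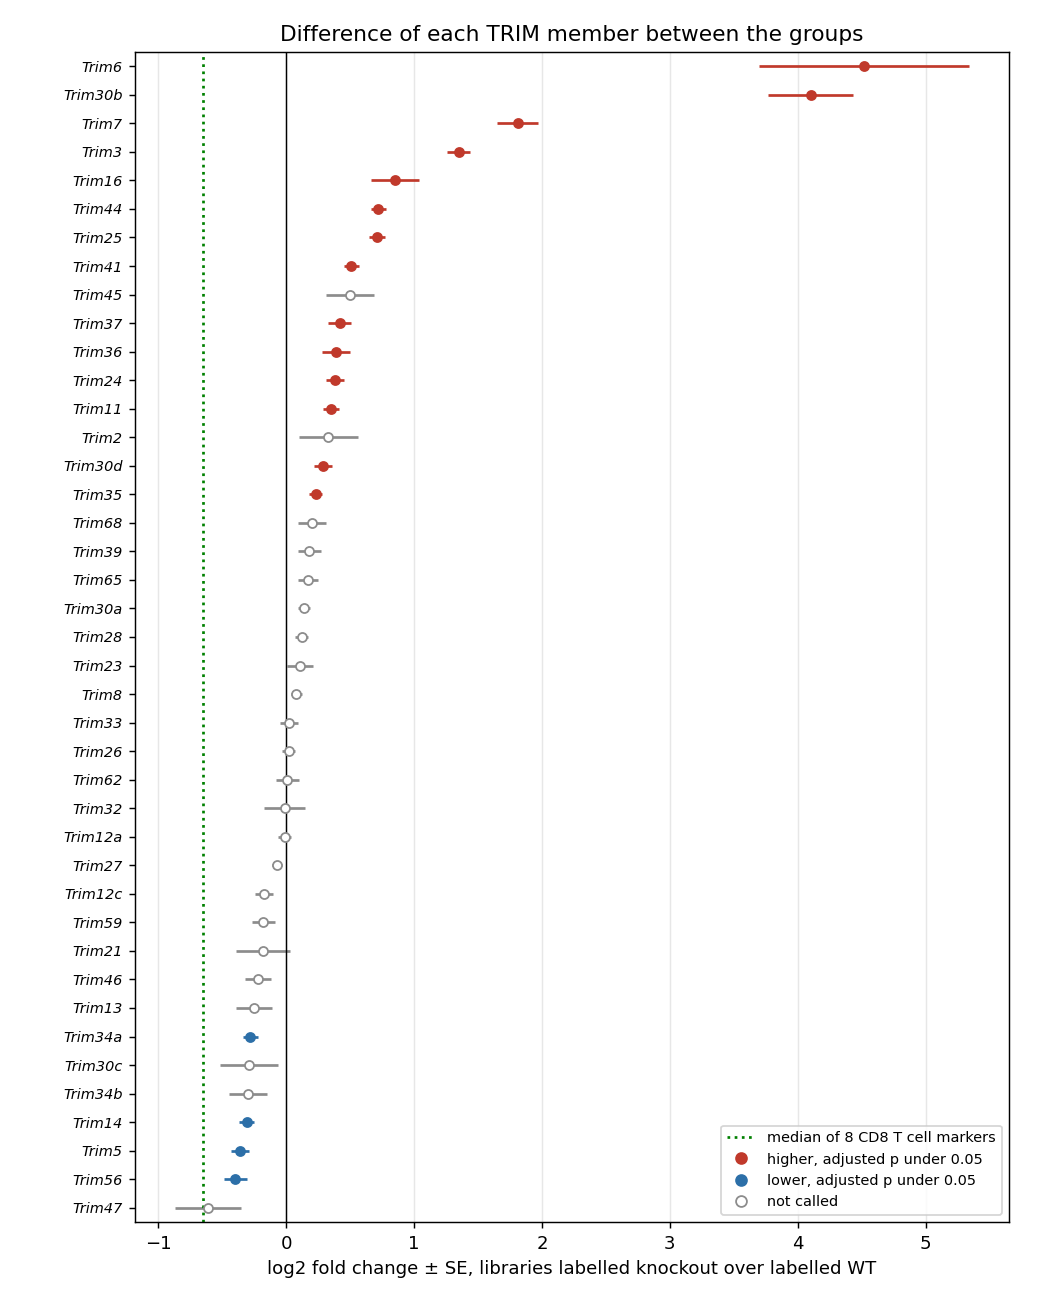
Log2 fold change with its standard error for the 41 members, libraries labelled knockout over libraries labelled WT, from highest to lowest. Filled points passed an adjusted p of 0.05 by limma. The dotted line marks the median of the 8 CD8 T cell markers at -0.65, below which no member lies. Most of all genes tested also lie above it, with a lower quartile of -0.25.

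The interferon-responsive SPRY class holds 11 members, 10 of which lie side by side on chromosome 7 between positions 104218793 and 104507849 (mm10), a stretch of 289.1 kb. In this cluster 3 members were higher, 2 lower and 5 did not pass the test, while of all genes tested 19.9% were higher and 13.4% lower. Of the 3 higher, Trim6 and Trim30b owe their membership to the libraries labelled knockout, which leaves Trim30d. With median centring Trim30d no longer passed and 4 more members were lower. Their promoters are shown because several neighbours share nearly the same promoter sequence and fell on different sides of the threshold, while the difference between neighbours was not tested. The sequences are RefSeq's on GRCm38.p6, read 5′ to 3′ on the strand of the gene. Capitals mark a match, on either strand, to the core of the interferon-stimulated response element (GAAA, any 2 bases, GAAA) or to the composite element bound by an ETS factor with an interferon regulatory factor (GGAA, any 2 bases, GAAA).
Trim30a, chr7:104465205-104465269, minus strand: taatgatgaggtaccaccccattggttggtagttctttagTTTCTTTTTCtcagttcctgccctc
Trim30d, chr7:104507866-104507930, minus strand: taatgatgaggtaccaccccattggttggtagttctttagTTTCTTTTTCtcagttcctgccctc
Trim30c, chr7:104400891-104400955, minus strand: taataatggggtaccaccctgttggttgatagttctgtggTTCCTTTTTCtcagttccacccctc
Trim5, chr7:104288131-104288195, minus strand: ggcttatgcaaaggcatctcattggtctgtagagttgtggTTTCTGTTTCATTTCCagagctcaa
Trim12c, chr7:104353354-104353418, minus strand: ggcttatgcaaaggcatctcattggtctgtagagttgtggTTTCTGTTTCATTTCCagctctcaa
Trim12a, chr7:104315463-104315492, minus strand: gttgtggTTTCTGTTTCATTTCCagagctc
Trim34a, chr7:104244457-104244486, plus strand: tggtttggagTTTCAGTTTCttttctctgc
In Trim30c the capitals mark the aligned place and not a match, since it differs from Trim30a there by the substitution T3C, counted from 1 at the first capital. In Trim5, Trim12a and Trim12c the capitals hold both motifs, which overlap. The first capital lies 36 bases before the start of Trim30a, 41 before Trim30d, 49 before Trim5 and 29 before Trim12c, and 11 bases past the start of Trim12a and of Trim34a.

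Trim30a is a rodent gene whose protein restrains NF-kB signalling downstream of Toll-like receptors. It had 5538 and 5387 normalized counts in the libraries labelled knockout, against 5104 and 4840.2 in those labelled WT. Both libraries labelled knockout were above both labelled WT, yet Trim30a did not pass the test (log2 fold change 0.14, SE 0.05, adjusted p = 0.0803), and it was -0.16 with median centring and passed as lower (adjusted p = 0.0452). Trim30d, whose promoter is identical to that of Trim30a at 276 of 294 aligned bases, had 1465 and 1466 in the libraries labelled knockout, against 1192 and 1213 in those labelled WT. It was higher by 1.22-fold (log2 fold change 0.29, SE 0.07, adjusted p = 0.0232), but lay at -0.02 with median centring (adjusted p = 0.875). Trim30c, aligned with Trim30a over 176 bases at 89.2% identity, had 75.5 and 84.7 in the libraries labelled knockout, against 92.6 and 104 in those labelled WT. The groups did not overlap, and the log2 fold change of -0.29 (SE 0.23) did not pass (adjusted p = 0.37).

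Trim30b, the fourth gene of this run, had 391 and 278 normalized counts in the libraries labelled knockout, against 23.4 and 14.3 in those labelled WT. In recovered reads, this was 685 in the libraries labelled knockout against 37 in those labelled WT (log2 fold change 4.10, SE 0.33). The ratio was 17.7, with a 95% exact interval of 12.7 to 25.4 for counting error alone. Of its sequence windows of 75 bases, 0.1% also occur in another gene, so little of it is shared with a relative. Neither motif was found in the promoter entry of Trim30b.

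Trim6, whose human counterpart makes unanchored ubiquitin chains that activate the kinase IKBKE, stands at the other end of the cluster and had the largest log2 fold change of the family, 4.52 (SE 0.82). It reached both the membership mean and the minimum for testing only through the libraries labelled knockout, so its p is not read here. It was also the least abundant member per length. Its normalized counts were 42.1 and 36.0 in the libraries labelled knockout, against 0 and 2.04 in those labelled WT. The 80 recovered reads in the libraries labelled knockout against 2 in those labelled WT give a ratio of 38.3. Its 95% exact interval is 10.3 to 322 for counting error alone, so the size of the difference is loosely known. Trim6 did not pass the test when either library labelled knockout was left out.

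Trim5, Trim12a and Trim12c are the mouse relatives of human TRIM5, which recognises the capsid of incoming retroviruses. Trim5 had 1739 and 1749 normalized counts in the libraries labelled knockout, against 2346 and 2147.5 in those labelled WT, lower in both. The WT libraries were 1.29-fold higher on average (log2 fold change -0.36, SE 0.07, adjusted p = 0.0091). Trim12a, identical to Trim5 at all 241 aligned promoter bases, had 5364.5 and 5266 in the libraries labelled knockout, against 5453 and 5265 in those labelled WT. Its groups overlapped and its log2 fold change was -0.01 (SE 0.05, adjusted p = 0.87), whereas with median centring it was -0.31 and passed as lower (adjusted p = 0.00258). Trim12c, 94.3% identical to Trim5 over 279 promoter bases, had 3670.4 and 3285 in the libraries labelled knockout, against 3987 and 3854 in those labelled WT. The groups did not overlap, but the log2 fold change of -0.17 (SE 0.07) did not pass (adjusted p = 0.0957). With median centring it was -0.48 and passed (adjusted p = 0.0016). Of the 75-base windows, 20.6% in Trim5 and 16.9% in Trim12c also occur in another gene, most often each other, so their counts are uncertain to that extent.

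Trim34a and Trim34b are the mouse copies of TRIM34, an interferon-induced relative of TRIM5. Trim34a had 2014.5 and 2059.7 normalized counts in the libraries labelled knockout, against 2476 and 2455 in those labelled WT. Both libraries labelled knockout were lower, by 0.28 on the log2 scale (log2 fold change -0.28, SE 0.06, adjusted p = 0.0129). Trim34b had 230.3 and 271 in the libraries labelled knockout, against 317.5 and 296 in those labelled WT, with no overlap. Its log2 fold change of -0.30 (SE 0.15) did not pass (adjusted p = 0.192), but with median centring it was -0.60 and did (adjusted p = 0.0182). These copies are hard to tell apart, since 29.5% of the windows of Trim34a and 42.5% of those of Trim34b also occur in another gene, most often each other. Trim34a also overlaps the antisense gene Gm47248 over 609 exon bases, and whether counting used the strand is not stated.

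**Figure D3:**
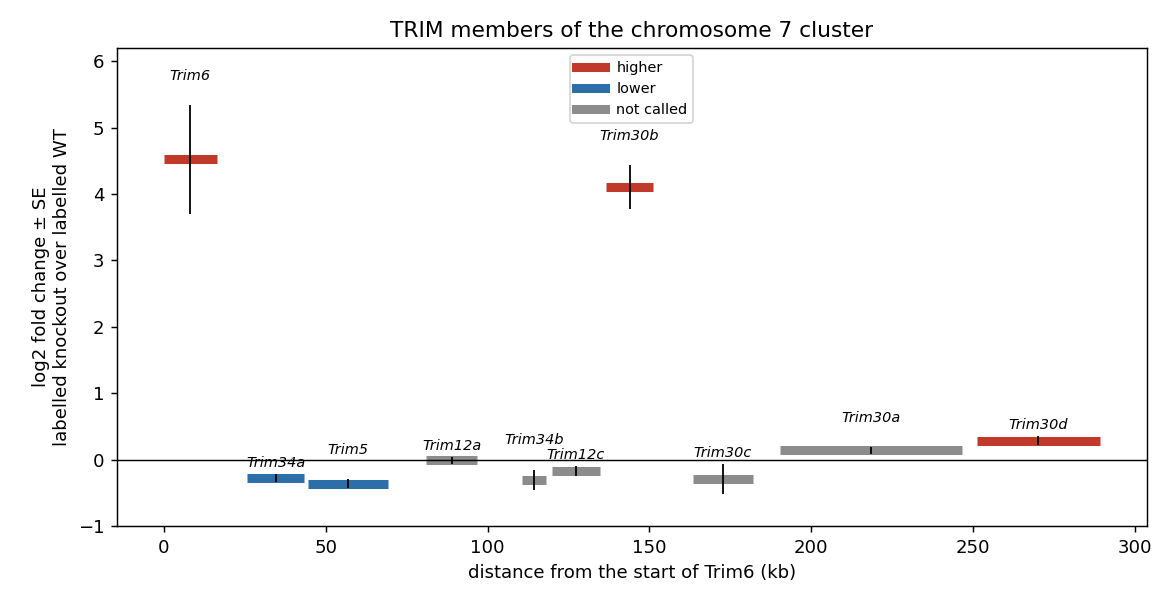
Log2 fold change of the 10 members of the chromosome 7 cluster, libraries labelled knockout over libraries labelled WT, by distance from the start of Trim6 in kb. Bar lengths are gene spans and vertical lines are standard errors. Trim6 and Trim30b stand above 4, and the other 8 lie between -0.36 and 0.29.

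Trim21, the cytosolic receptor for antibody-coated virus, belongs to the same class but lies outside the cluster. Just past its start lie overlapping matches to the response element core, shown because the gene is a standard example of an interferon target.
Trim21, chr7:102565447-102565476, minus strand: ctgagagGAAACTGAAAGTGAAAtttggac
Trim21 had 201 and 162 normalized counts in the libraries labelled knockout, against 178 and 234 in those labelled WT. The groups overlapped, and the log2 fold change was -0.18 (SE 0.21, adjusted p = 0.562). The class as a whole had a median log2 fold change of -0.17, and its summed normalized counts were 20731 and 20044 in the libraries labelled knockout, against 21169 and 20425 in those labelled WT.

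Promoter entries were found for 32 of the 41 members. The response element core was found on either strand in 9 of them, or 28.1%, beside 3.99% of the 27025 symbols with an entry. The 9 were Trim2, Trim5, Trim12a, Trim12c, Trim21, Trim26, Trim30a, Trim30d and Trim34a, of which 1 was higher and 2 were lower, with a median log2 fold change of -0.01. The 23 members without it had 8 higher and 1 lower and a median of 0.12. The composite element was found in 6 members, or 18.8%, beside 3.16% of symbols, namely Trim5, Trim12a, Trim12c, Trim25, Trim34b and Trim44. Of these 2 were higher and 1 was lower, with a median of -0.09, while the 26 members without it had 7 higher and 2 lower and a median of 0.12. Related promoters are counted once each here although they share sequence. Trim6 and Trim30b, whose membership rests on the libraries labelled knockout, are among the higher members without either motif. Of all genes tested, 19.9% were higher and 13.4% lower. Whether a motif goes with a difference was not tested. The composite element matches in its 2 higher members, Trim44 and Trim25, are as follows, with the same use of capitals.
Trim44, chr2:102401056-102401120, minus strand: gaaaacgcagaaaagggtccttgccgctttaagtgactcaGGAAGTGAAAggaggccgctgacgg
Trim25, chr11:88999389-88999418, plus strand: tcctgttcagTTTCGATTCCttcctcgctg

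Among the other regulators of innate sensing, 9 members were measured, 1 higher, 2 lower and 6 not past the test, with a median log2 fold change of 0.02. Trim25, the ligase best known for acting with the RNA sensor RIG-I in human cells, had 8231.5 and 7826 normalized counts in the libraries labelled knockout, against 4727 and 5118 in those labelled WT. Its means were 8029 ± 287 in the libraries labelled knockout and 4923 ± 276 in those labelled WT (SD, n = 2 each), a 1.63-fold increase without overlap (log2 fold change 0.71, SE 0.06, adjusted p = 0.000208 by limma). It was the most abundant member per length among those that rose, at 1125 normalized counts per kb of exon.

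Trim56 and Trim14 were lower. Trim56, a ligase that acts on the DNA-sensing pathway through STING and cGAS, had 2069 and 1774.5 normalized counts in the libraries labelled knockout, against 2428 and 2649 in those labelled WT. Its log2 fold change of -0.40 (SE 0.09, adjusted p = 0.0177) was the largest decrease to pass in the family. Trim14, a member without a RING domain that serves as an adaptor in RNA and DNA sensing, had 2660.2 and 2506 in the libraries labelled knockout, against 3170.2 and 3219.7 in those labelled WT. It was lower by 0.31 on the log2 scale (log2 fold change -0.31, SE 0.06, adjusted p = 0.00846), with no overlap. Its exons overlap 1356 bases of Nans on the opposite strand, and Nans itself had a log2 fold change of -0.05 (adjusted p = 0.543).

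Trim27, which dampens NF-kB and interferon signalling, had 7420.2 and 7653 normalized counts in the libraries labelled knockout, against 7973 and 7817 in those labelled WT. These did not overlap, and the log2 fold change of -0.07 (SE 0.04) did not pass (adjusted p = 0.258). With median centring it was -0.37 and passed as lower (adjusted p = 0.000864). The log2 fold changes of the other 5 were -0.25 for Trim13, an endoplasmic reticulum ligase, 0.02 for Trim26, 0.08 for Trim8, 0.11 for Trim23, which carries a GTPase domain, and 0.17 for Trim65, a ligase of the RNA sensor MDA5. None of the 5 passed. With median centring Trim13 (-0.55), Trim26 (-0.28) and Trim8 (-0.22) were lower, with adjusted p = 0.0148, 0.00739 and 0.00912, and Trim23 (-0.19) and Trim65 (-0.13) turned sign without passing.

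The TIF1 class, chromatin cofactors with a PHD finger and bromodomain, has 3 members here, and 1 was higher. Trim28, the corepressor recruited by KRAB zinc finger proteins, had 15071 and 14945 normalized counts in the libraries labelled knockout, against 14428 and 13222 in those labelled WT. It was the most abundant member, at 3467 normalized counts per kb of exon. The groups did not overlap, but the log2 fold change of 0.12 (SE 0.05) did not pass (adjusted p = 0.109), and with median centring it was -0.18 and passed as lower (adjusted p = 0.0355). Trim24, a coregulator of nuclear receptors that reads modified histones, had 2971 and 2899.7 in the libraries labelled knockout, against 2381 and 2144 in those labelled WT. It was higher by 1.30-fold with no overlap (log2 fold change 0.38, SE 0.07, adjusted p = 0.00783), and with median centring it was 0.08 and did not pass (adjusted p = 0.435). Trim33, which acts with SMAD proteins in TGF-beta signalling, had 2586 and 2605 in the libraries labelled knockout, between the 2717 and 2396 of those labelled WT. Its log2 fold change was 0.02 (SE 0.07, adjusted p = 0.833), and with median centring it was -0.28 and lower (adjusted p = 0.0283).

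The other SPRY members had the most increases of any class, 5 of 9, with 0 lower and 4 not past the test, and a median log2 fold change of 0.23. Of all genes tested, 19.9% were higher and 13.4% lower. With median centring Trim11 and Trim35 no longer passed, and Trim47 and Trim62 became lower. Trim7, whose human counterpart binds the glycogen primer glycogenin, had 364.5 and 379.6 normalized counts in the libraries labelled knockout, against 102 and 109 in those labelled WT. Both libraries labelled knockout were far above, by 3.53-fold on the means of 372 ± 10.7 in the libraries labelled knockout and 106 ± 5.30 in those labelled WT (SD, n = 2 each; log2 fold change 1.81, SE 0.16, adjusted p = 0.000335 by limma). Its exons overlap the antisense gene Gm16170 over 491 bases, which had 27.4 and 34.1 in the libraries labelled knockout and 0 and 8.17 in those labelled WT.

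Trim16, a member without a RING domain known for its part in the handling of damaged membranes, had 198 and 189.8 normalized counts in the libraries labelled knockout, against 114 and 100.1 in those labelled WT. It was higher by 1.81-fold without overlap (log2 fold change 0.85, SE 0.19, adjusted p = 0.0151). Trim16 shares 237 exon bases on the same strand with Fbxw10, which was higher too, at 120.5 and 90.5 in the libraries labelled knockout against 14.3 and 3.06 in those labelled WT (log2 fold change 3.74, adjusted p = 0.00634). Reads in the shared bases cannot be assigned to either gene, and their part in the difference of Trim16 was not tested.

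Trim41, a RING ligase, had 2464 and 2566 normalized counts in the libraries labelled knockout, against 1793 and 1750.2 in those labelled WT. It was higher by 1.42-fold with no overlap (log2 fold change 0.51, SE 0.06, adjusted p = 0.00136). Its exons overlap Rack1 over 31 bases on the opposite strand, and Rack1 was lower (log2 fold change -0.36, adjusted p = 0.000277 by limma). Trim11, a ligase also tied to the clearance of misfolded proteins, had 4083 and 3814 in the libraries labelled knockout, against 3209 and 2974 in those labelled WT, and was higher by 1.28-fold (log2 fold change 0.35, SE 0.06, adjusted p = 0.00728), but with median centring it was 0.05 and did not pass (adjusted p = 0.555). Trim35 had 5503 and 5176 in the libraries labelled knockout, against 4655 and 4443 in those labelled WT, without overlap. Its 1.17-fold increase was the smallest to pass (log2 fold change 0.23, SE 0.05, adjusted p = 0.0188) and lay at -0.07 with median centring (adjusted p = 0.359). Trim39, Trim62 and Trim68 had log2 fold changes of 0.18, 0.01 and 0.20 and did not pass. With median centring they were -0.12, -0.29 and -0.10, and Trim62 was lower (adjusted p = 0.0321). Trim47 had 49.0 and 62.3 in the libraries labelled knockout, against 85.5 and 84.8 in those labelled WT. Its log2 fold change of -0.61 was the lowest of all members, but with an SE of 0.26 it did not pass (adjusted p = 0.123). With median centring it was -0.91 and passed (adjusted p = 0.026). Its exons share 225 bases with those of Trim65 on the same strand.

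Of the 3 NHL-repeat members, which are known from neurons and muscle, 1 was higher. Trim3, a ligase of the brain, had 1402 and 1492 normalized counts in the libraries labelled knockout, against 592 and 542 in those labelled WT. The means were 1447 ± 63.7 in the libraries labelled knockout and 567 ± 35.4 in those labelled WT (SD, n = 2 each), a 2.55-fold increase and, at an adjusted p of 0.000113 by limma, the smallest adjusted p in the family (log2 fold change 1.35, SE 0.09). Trim32, a ligase mutated in a human muscular dystrophy, had 710.4 and 773 in the libraries labelled knockout, within the 876 and 639 of those labelled WT (log2 fold change -0.01, adjusted p = 0.956). Trim2, a ligase of neurofilament light chain, had a log2 fold change of 0.33 that did not pass (adjusted p = 0.312).

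Of the 2 COS-box members, which bind microtubules, Trim36 had 1044.5 and 1029.8 normalized counts in the libraries labelled knockout, against 729 and 861 in those labelled WT. It was higher by 1.31-fold with no overlap (log2 fold change 0.39, SE 0.11, adjusted p = 0.0333), the increase nearest the threshold. With median centring it was 0.09 and did not pass (adjusted p = 0.501). Trim46, which organises the axon initial segment of neurons, had a log2 fold change of -0.22 (adjusted p = 0.147), and with median centring it was -0.52 and lower (adjusted p = 0.00561). Its exons overlap Krtcap2 over 239 bases on the opposite strand. Krtcap2 had a mean normalized count of 14190, against 571 for Trim46, and was lower (log2 fold change -0.38, adjusted p = 0.00762 by limma). The part of this overlap in the value of Trim46 was not tested.

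In the class with other modules or none, 2 of 4 members were higher and 0 lower, with a median log2 fold change of 0.46. Trim44, which has a ubiquitin-protease type zinc finger in place of the RING domain and counteracts ubiquitination, had 2542 and 2664 normalized counts in the libraries labelled knockout, against 1603 and 1551 in those labelled WT. Both libraries labelled knockout were above, by 1.65-fold on the means of 2603 ± 86.6 in the libraries labelled knockout and 1577 ± 36.6 in those labelled WT (SD, n = 2 each; log2 fold change 0.72, SE 0.06, adjusted p = 0.000336 by limma). Trim37, a ligase of peroxisomes and centrioles, had 1381 and 1282 in the libraries labelled knockout, against 1056 and 938 in those labelled WT, a 1.33-fold increase (log2 fold change 0.42, SE 0.09, adjusted p = 0.0163) that was 0.12 and did not pass with median centring (adjusted p = 0.356). Trim45 had 384 and 297 in the libraries labelled knockout, against 212 and 267.5 in those labelled WT, and its log2 fold change of 0.50 did not pass (SE 0.19, adjusted p = 0.0973). Trim59, a membrane-anchored member, had a log2 fold change of -0.18 (adjusted p = 0.171), and with median centring it was -0.48 and lower (adjusted p = 0.00377).

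Levels spanned a wide range. Per kb of exon over the 4 libraries, Trim28 was followed by Trim8 at 1782, Trim27 at 1403, Trim30a at 1269 and Trim25 at 1125 normalized counts. The lowest members were Trim6 at 4.10, Trim2 at 5.47, Trim30b at 23.5 and Trim47 at 25.7 per kb. The summed normalized counts of all members were 104353 and 102124 in the libraries labelled knockout, against 96049 and 92862.5 in those labelled WT. The 3 members with the largest differences, Trim6, Trim30b and Trim7, all had 31.4 normalized counts per kb or fewer. All 41 members had a log2 fold change above -0.65, the median of the 8 CD8 T cell markers. The lower quartile of all genes tested was -0.25, so most genes also lay above -0.65.

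**Figure D4:**
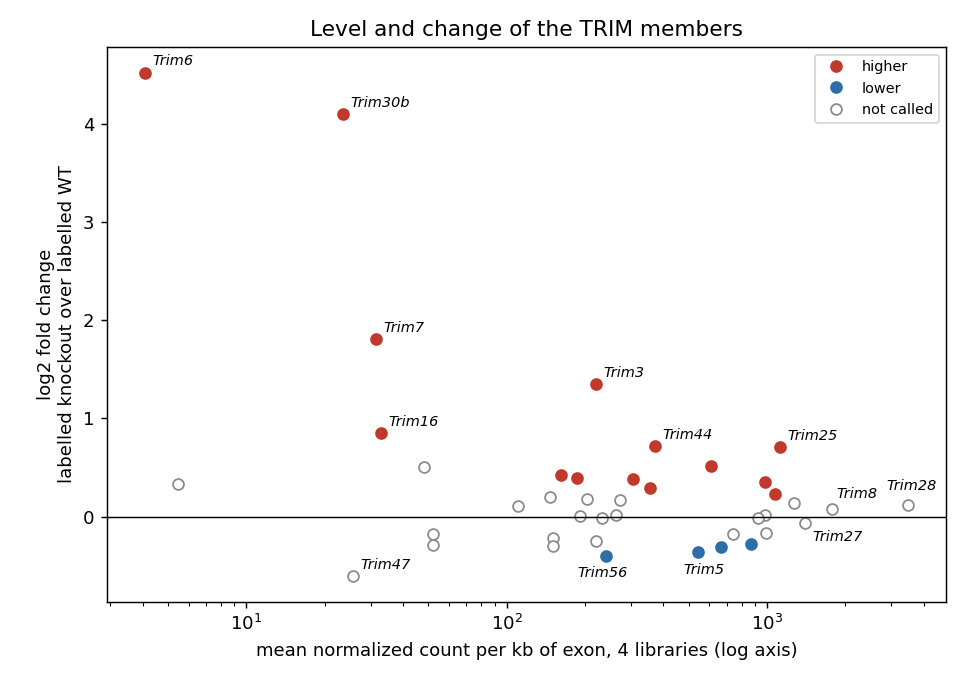
Log2 fold change, libraries labelled knockout over libraries labelled WT, against the mean normalized count per kb of exon over the 4 libraries (log axis) for the 41 members. Filled points passed an adjusted p of 0.05 by limma. The largest changes stand at low levels, with Trim6 at 4.10 and Trim30b at 23.5 per kb, and Trim28 at 3467 lies near 0.

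Just inside the threshold for membership lay Trim6 with a mean normalized count of 20.1, Trim47 with 70.4 and Trim30c with 89.2. Just outside lay Trim17 with 16.5, Trim55 with 10 and Trim69 with 9.23. Trim55, a muscle member, had 13.7 and 26.3 in the libraries labelled knockout and 0 reads in both libraries labelled WT, at least 6.54-fold higher with a floor of 3 reads per library. Of the 27 symbols outside, 11 were at 0 in all 4 libraries, among them Trim9, Trim31 and Trim54, and 4 had enough reads to be tested.

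The family also holds genes whose symbols do not follow the pattern. Of 8 such genes tested, 4 were higher and 1 was lower, with a median log2 fold change of 0.68. Pml, the organiser of nuclear bodies and an interferon-induced gene, had 7349 and 7239.9 normalized counts in the libraries labelled knockout, against 4959 and 4773 in those labelled WT (log2 fold change 0.58, SE 0.04, adjusted p = 0.000175). Mid1, a microtubule-bound ligase, had 309.6 and 299 in the libraries labelled knockout, against 83.5 and 84.8 in those labelled WT (log2 fold change 1.84, adjusted p = 0.000419). Bspry, which has a B-box and a SPRY module without a RING domain, had 3178.5 and 2971 in the libraries labelled knockout, against 4771 and 4674 in those labelled WT (log2 fold change -0.62, adjusted p = 0.000353).

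Partners of the family changed in both directions, and of all genes tested 19.9% were higher and 13.4% lower. Of 10 E2 enzymes, 2 were higher and 1 was lower, with a median log2 fold change of 0.02. Ube2l6, the E2 of the ubiquitin-like ISG15, had a log2 fold change of 0.49 (adjusted p = 0.00884), Ube2e3 one of 0.44 (adjusted p = 0.00322) and Ube2d3, a general partner of RING ligases, one of -0.17 (adjusted p = 0.02). Of 10 genes of the silencing complex of TRIM28, 1 was higher and 3 were lower, with a median of -0.10. Setdb1, the histone methyltransferase of that complex, was higher (log2 fold change 0.41, adjusted p = 0.00876), and the nucleosome remodellers Chd4 and Chd3 were lower (log2 fold changes -0.33 and -0.28, adjusted p = 0.00334 and 0.00653). Of 19 genes that signal with the RNA and DNA sensors and Toll-like receptors, 2 were higher and 7 lower, with a median of -0.16. Tmem173, which encodes STING, and the adaptor Myd88 were higher (log2 fold changes 0.40 and 0.52, adjusted p = 0.000417 and 0.00157). Isg15 and Zc3hav1, an antiviral RNA-binding protein that works with TRIM25, were lower (log2 fold changes -0.53 and -0.45, adjusted p = 0.000835 and 0.000285). With median centring Setdb1 (0.11), Ube2e3 (0.14), Ube2l6 (0.19) and Tmem173 (0.10) no longer passed, with adjusted p = 0.303, 0.135, 0.111 and 0.0909, while Pml (0.28) and Myd88 (0.22) still did.

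**Figure D5:**
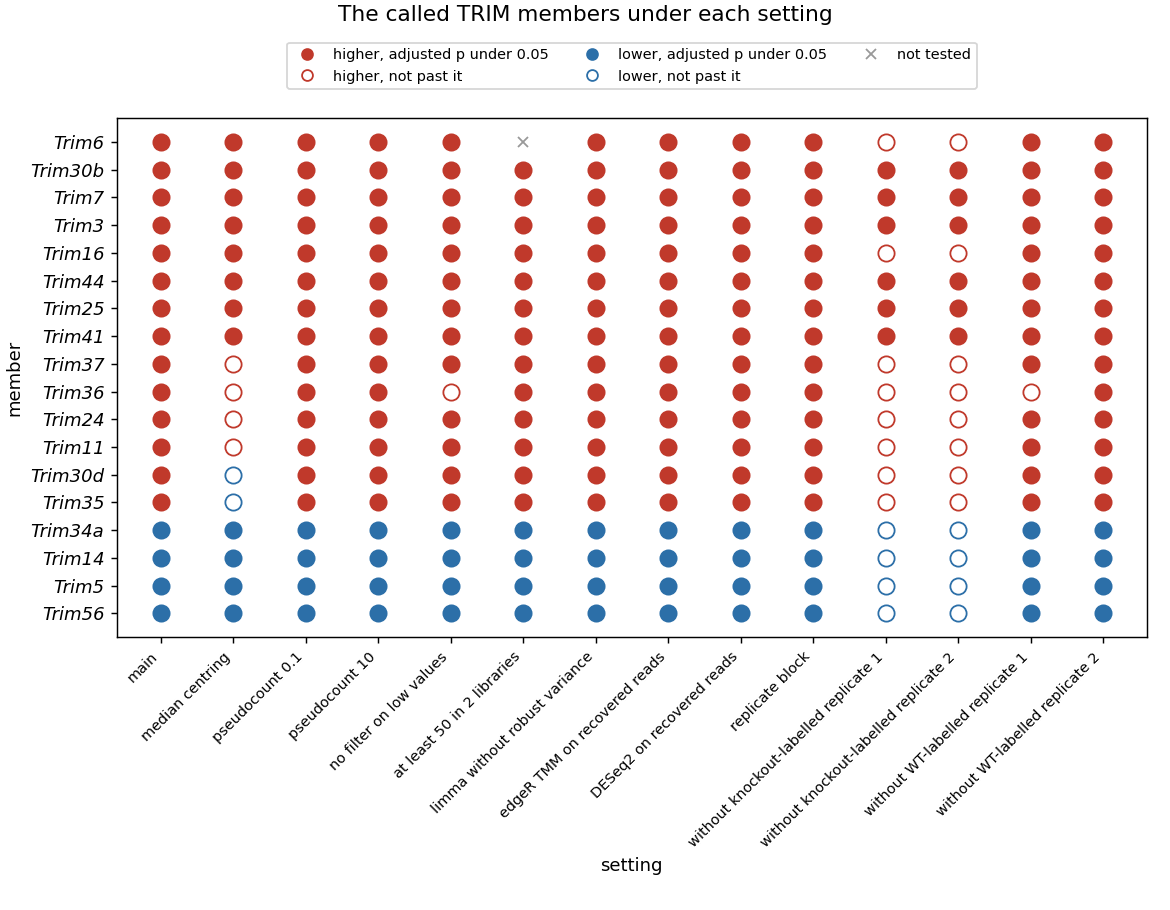
The 18 members past the threshold (rows) under each processing alternative (columns), where a filled symbol passed an adjusted p of 0.05, an open one did not and a cross was not tested. Red is higher and blue lower in the libraries labelled knockout. Trim3, Trim7, Trim25, Trim30b, Trim41 and Trim44 are filled in every column. Trim6 and Trim30b are members only through the libraries labelled knockout, so their rows are descriptive.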

How the data were processed

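Groups and replicate numbers came from the sample titles. Per the submitters' processing notes, the tools were DESeq2, StringTie 2.1.4, HISAT2 2.2.1 and Trim Galore 0.4.4 on mm10. For settings, annotation and strand, the sources used here give nothing. The authors deposited 1 table with a normalized count (a coverage signal divided by a size factor) for each library, matched to its sample by title. Per the file headers, it also holds the authors' log2 fold change and its error, a Wald score, and raw and adjusted p-values. These were deposited with the sign of WT over knockout. Each column held whole multiples of 1 step, within 0.01 of a step, for 100% of values. These multiples were taken as the reads per gene. As the signal was coverage, a unit need not be a sequenced read, and this was not tested. Size factors were 0.979 to 1.027. With each unit taken as a read, the replicates differed by more than sampling noise (chi-square per degree of freedom 23.6 for WT and 6.75 for knockout).

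The main test was limma 3.58.1 (trended, robust variance, two-sided) on log2(normalized count + 1), over genes at 10 or more in at least 2 libraries, with Benjamini-Hochberg adjustment over all of them. An exact permutation of 2 against 2 libraries cannot go below p = 0.333. This scale understates changes of low genes. edgeR 4.0.16 and DESeq2 1.42.0 on the recovered reads were alternatives. Folds are ratios of group means. Intervals and floors cover counting error only and take each recovered unit as a read.

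Coordinates, exon lengths, overlaps and shared 75-base windows came from GENCODE M21 on GRCm38, matched by symbol for 41 of 41 members. Promoters (250 bases before to 50 past the start) came from RefSeq. Values in each library are given for members with the 8 largest increases and decreases past the threshold. So are those of the TIF1 and interferon-responsive classes, Trim25, Trim27 and Trim14, and the 3 members just above the mean of 20. Of the 3 symbols just below it, Trim55 has values in each library, and Trim17 and Trim69 have a mean only. Up to 2 higher and 2 lower genes of each list outside the members were named by adjusted p. Those of the family (Pml, Mid1 and Bspry) have values in each library, and the partners have log2 fold changes only. Other members past the threshold, and a few near it, were added after their values were seen. The members, lists and tests were chosen with earlier results of these data known.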

Additional observations from a re-analysis of the deposited data

How the results depend on the processing

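With 14 higher and 4 lower members (3662 higher and 2469 lower genes) in the main fit, median centring gave 8 and 18 (2389 and 7210). It turned the log2 fold changes of 12 members: Trim28 (-0.18), Trim33 (-0.28), Trim30a (-0.16), Trim30d (-0.02), Trim35 (-0.07), Trim8 (-0.22), Trim26 (-0.28), Trim62 (-0.29), Trim23 (-0.19), Trim65 (-0.13), Trim39 (-0.12) and Trim68 (-0.10). Leaving out 1 library gave 6 to 16 higher and 0 to 4 lower members (1309 to 4137 and 630 to 2759 genes), the lowest without a library labelled knockout (1358 and 694 genes without replicate 1, 1309 and 630 without replicate 2), and ranges of -0.04 to 0.01 for Trim12a, -0.07 to 0.12 for Trim33 and -0.37 to 0.02 for Trim21. The cause was not tested. Pseudocounts of 0.1 and 10, limma without robust variance, edgeR and DESeq2 kept all 18 calls. No filter lost Trim36, and a minimum of 50 left Trim6 untested. Deviations from the group mean in same-numbered libraries had a correlation across genes of 0.017. With 2 libraries a group these deviations mirror each other, so both pairs give the same value. It cannot show whether same-numbered libraries were paired. The replicate block gave 3415 higher and 2168 lower genes and kept the 14 and 4 members. A member mean of 10 or 100 gave 14 or 13 higher and 4 lower. Of the results for 41 named genes over 13 alternatives, 468 kept direction and side of the threshold, 48 fell short of it, 7 newly passed and 9 changed sign. With 2 libraries a group, differences near the threshold rest on few values, and Trim6 on 2 reads in the WT group.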
